A study of Gallus gallus with 4 samples.

Results

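Short-unit microsatellites and low-complexity repeats were followed in RNA-seq libraries of cranial neural folds from chick embryos (Gallus gallus). They were taken from the tables of reads per repeat name as all names of the form (unit)n with a unit of 1 to 4 letters, plus all names ending in -rich. They were selected on abundance, as names with at least 40 reads over the 4 libraries together. This gave 271 of the 334 names of that form, out of 11336 repeat names in all. The summed count was thus used to choose the names, so their abundance is given as a description, while the group labels were not used. Of the 63 names left out, 13 had no read and 50 had 1 to 39 reads. Just inside the limit were (GAGT)n with 40 reads, (TTGA)n with 46 and (GATA)n with 49, and just outside were (ACT)n and (TAAC)n with 39 and (TCAG)n with 37.

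The study compared 2 libraries of Chiwi CRISPR knockout tissue with 2 libraries of CRISPR control tissue. Chiwi is a PIWI protein of the chicken. Embryos of Hamburger-Hamilton stage HH4 were obtained after about 18 h at 37 °C. All embryos then received a Cas9 construct by electroporation, with Chiwi guides on the right side and control guides on the left, and grew for about 14 h more, to stage HH9-. Each library pools tissue of several embryos, and side and group coincide, so they cannot be told apart. Electroporation is known to reach only some of the cells of a tissue. The libraries held 38783357 to 40352750 reads in genes and 2707324 to 2942281 reads in repeats. Over the short-unit and low-complexity names the spread inside each group exceeded counting noise. Chi-square divided by its degrees of freedom came to 40.4 for the knockout and 62.0 for the control pair. This value grows with read number, so abundant names that differ between replicates, such as A-rich, weigh most in it. It does not measure the spread of a typical name. Whether the pools of one group hold different embryos is not in the labels, and every p-value here rests on the spread between pools, which may be technical. For single names that spread was estimated mostly from all repeat names tested together. None of the 24356 gene IDs was found in the gene reference at hand (0 matches), which is a gap of that reference. The level of Chiwi and the markers of the neural folds were therefore not analysed here.

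Microsatellites are tandem arrays of a short unit, known to gain and lose copies when DNA polymerase slips during replication. In transcripts they are found in introns and untranslated regions, and arrays of triplets also occur in coding sequence. Low-complexity repeats are stretches dominated by 1 or 2 kinds of base without a regular unit. PIWI proteins bind piRNAs and are known as silencers of transposons in germ cells, and short-unit arrays are not transposons. A name gives the unit as read on one strand of the genome from one starting letter, so a single kind of array can carry several names. To show this, the names below are spelled out as runs of 24 bases, with the first unit in capitals. Lines follow each other in pairs of reverse complements, which are the same double-stranded array read from either strand. The runs show the unit only, and the length of the arrays in the genome was not analysed here.
(T)n repeat: Tttttttttttttttttttttttt
(A)n repeat: Aaaaaaaaaaaaaaaaaaaaaaaa
(CA)n repeat: CAcacacacacacacacacacaca
(TG)n repeat: TGtgtgtgtgtgtgtgtgtgtgtg
(TTC)n repeat: TTCttcttcttcttcttcttcttc
(GAA)n repeat: GAAgaagaagaagaagaagaagaa
(CCCT)n repeat: CCCTccctccctccctccctccct
(AGGG)n repeat: AGGGagggagggagggagggaggg

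The 271 names made up 2.39% of the names in the repeat tables and held 43.1% of all repeat reads, between 42.4% and 44.3% in each library. Levels are given as reads per 1000000 gene reads of the same library, written CPM. They are not per length, since the number and length of the arrays behind a name are not known here. Every mononucleotide name was kept, as were 14 of the 15 listed units of 2 letters, 61 of 63 units of 3 letters, 187 of 246 units of 4 letters, and 5 of 6 -rich names. T-rich, with 22 reads, was the exception among the last. Triplets took the largest share of the summed level, 36.1%, followed by the -rich names with 32.3% and the mononucleotides with 17.2%. Units of 4 letters took 8.58% and units of 2 letters 5.76%. Classes go by the unit as written, and mononucleotides here are the 4 names with a written unit of 1 letter. (ACAC)n, for example, counts as a unit of 4 letters. Kept names that reduce to the single letter A or T numbered 5, and those that reduce to C or G also 5. Some arrays of a single letter therefore lie in the classes of longer units.

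The level was concentrated in few names. The 5 most abundant held 48.3% of it and the 20 most abundant 72.4%, and 57 names were needed to reach 90%. The median name stood at 8.56 CPM, and 29 names had a mean under 1 CPM. A-rich, the most abundant, stood at 3528 and 5053 CPM in knockout replicates 1 and 2 and at 3395 and 4936 CPM in control replicates 1 and 2. GA-rich followed with 3557 and 4293 CPM in the knockout and 3578 and 4248 CPM in the control libraries. In both, replicate 2 was the higher library of its group, and the groups overlapped. (T)n stood at 3274 and 3226 CPM against 3060 and 3305 CPM, and G-rich at 1764 and 1888 CPM against 1887 and 1685 CPM. (A)n stood at 1730 and 1725 CPM against 1616 and 1763 CPM. In (T)n, (A)n and G-rich the 2 control libraries lay further apart than the knockout libraries did, and in (T)n and (A)n both knockout libraries fell between the controls.

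Among triplets the most abundant were 3 spellings of the CCG array, the unit known in humans from the fragile X expansion. (GGC)n stood at 859 and 874 CPM in the knockout and 924 and 816 CPM in control libraries. (GCG)n stood at 750.0 and 755 against 796 and 716 CPM, and (GCC)n at 650.5 and 645 against 689 and 576 CPM. For each of these names control replicate 1 was the highest and control replicate 2 the lowest of the 4 libraries. Among units of 2 letters, (TA)n led with 304 and 284 CPM in the knockout and 272 and 296 CPM in control libraries. (AT)n, the same array from its other letter, stood at 256 and 242 against 234 and 248 CPM. (CA)n, the most common dinucleotide array of vertebrate genomes together with its complement, stood at 229 and 202 against 229 and 195 CPM. Its 2 libraries with number 1 were the higher ones. Among units of 4 letters the leading names were (TTTG)n with 170.2 and 182 CPM against 180.1 and 191 CPM, (TTGT)n with 158 and 156 against 155 and 160.4 CPM, and (CCCT)n with 93.3 and 118 against 114 and 109 CPM. (C)n, the third mononucleotide by level, stood at 209.7 and 239 against 239 and 219 CPM. The groups overlapped for all of these names.

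**Figure D1:**
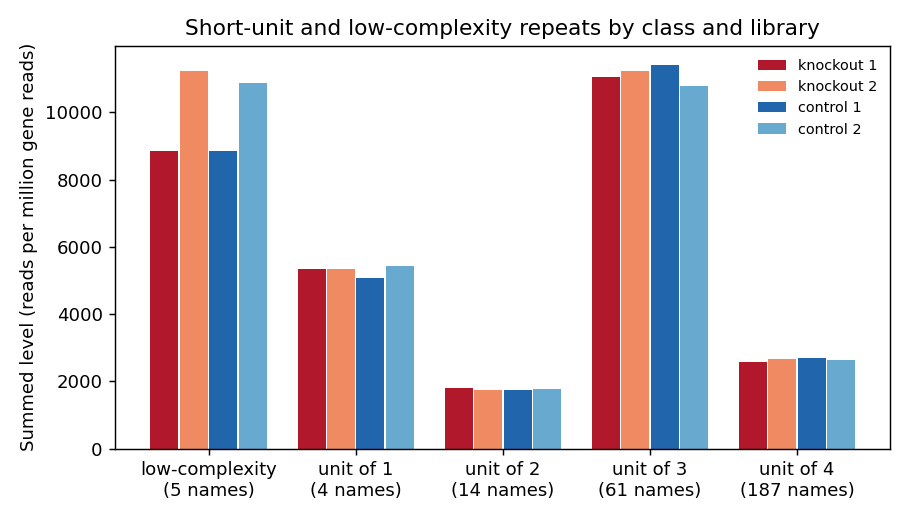
Summed level of each class of names, by the unit as written (vertical axis, CPM, from 0), in each library, 1 bar per library, with the number of names in brackets. The -rich names, labelled low-complexity, stand at 8850 and 8862 CPM in the libraries with number 1 and at 11235 and 10870 CPM in those with number 2, while the other classes differ less between libraries.

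Names that are reverse complements of each other did not hold equal numbers of reads. There were 112 pairs in which both names were kept, besides 14 names that are their own complement and 33 whose complement was not kept. The higher name of a pair stood at a median of 2.74 times the lower, and 66 pairs differed by more than 2 to 1. CT-rich, at 1.01 and 0.863 CPM in the knockout and 0.942 and 0.673 CPM in control libraries, stood against GA-rich at a ratio of 4499. C-rich, at 0.670 and 1.17 against 0.843 and 1.20 CPM, was likewise far below G-rich. Whether the -rich labels mark a strand of the genome is not known here. Among the (unit)n pairs, (GCCC)n stood at 33.6 CPM and (GGGC)n at 1.13 CPM on average, and (CCCT)n at 108.7 CPM and (AGGG)n at 4.63 CPM. Further examples were (TTTG)n with 181 CPM against (CAAA)n with 14.5 CPM, and (TTC)n with 584 CPM against (GAA)n with 100.3 CPM. Such gaps between names depend in part on the starting letter. Over all starting letters, the array of (GCCC)n held 24160 reads as CCCG and 15056 as CGGG, a mean of 38.4% CGGG.

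**Figure D2:**
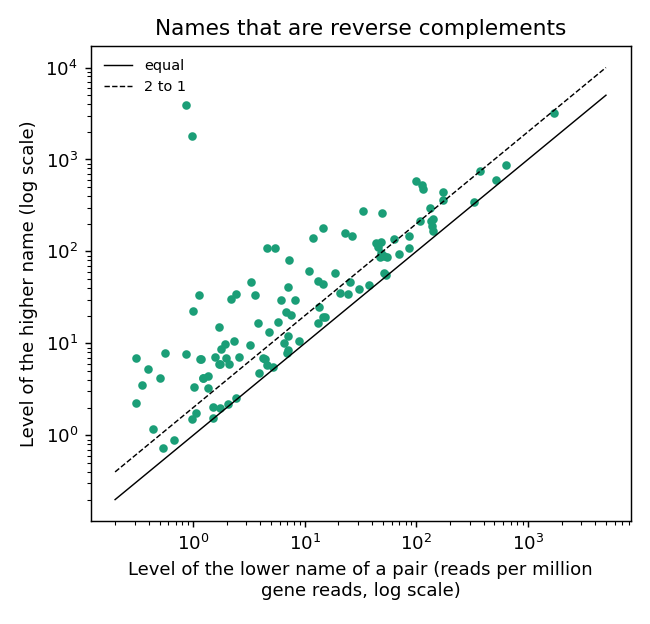
Mean level of the higher name against the lower name of each of the 112 pairs of reverse complements (both axes in CPM on a log scale, 1 point per pair). The solid line marks equal levels and the dashed line 2 to 1, and 66 pairs lie above the dashed line.

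When all starting letters of a unit were added up, many families still had an uneven strand split. It was seen in each of the 8 families whose unit holds only purines (A and G) on one strand and only pyrimidines (C and T) on the other, a set singled out after its values were seen. In all 8 the pyrimidine spelling held more reads. For T against A its share was 67.2 ± 0.192% in knockout and 67.3 ± 0.193% in control libraries (SD, n = 2 each). For CCT against AGG the mean share over the 4 libraries was 78.3%, for CTT against AAG 75.8%, for C against G 68.0% and for CT against AG 68.4%. For the units of 4 letters it was 89.9% for CCCT, 72.4% for CTTT and 78.4% for CCTT. Within each of these 8 families the 4 libraries lay at most 2.28 percentage points apart, and over all 20 families at 100 CPM or more with a distinct complement at most 4.63 points. In reads, the pyrimidine spellings held 1106257 and the purine spellings 441975, a ratio of 2.50. For the -rich names nearly all reads were under the purine labels, with 1578888 under A-rich, G-rich and GA-rich and 314 under T-rich, C-rich and CT-rich. Since it is not known here whether these labels mark a strand, this is not read as a strand split. Of the 13 other families at 100 CPM or more with a distinct complement, AGC with GCT was the most even, at 49.4% GCT. ACG with CGT was the most uneven, at 11.0% CGT. Splits as uneven as those of the 8 families also occurred here, as in AACC with 78.0% GGTT and AAAC with 71.8% GTTT. Which of these splits follow the number of arrays carrying each name was not tested. The strand setting of the read counting is not known here, so whether a split reflects the strand transcribed cannot be told.

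The comparison of knockout with control asks whether loss of Chiwi changes the level of these repeats. No name passed the adjusted threshold. Of the 271 names, 270 passed the filter on low counts, and the exception was (GAGT)n, which had 6 and 8 reads in knockout and 5 and 21 in control libraries. In edgeR's quasi-likelihood test over all 2803 repeat names that passed, 0 of the 270 were called (smallest adjusted p = 0.9997), against a background of 0% over all names tested. DESeq2 and limma-voom called 0 as well. At an unadjusted p under 0.05 there were 2 of the 270 names, beside 39 of all 2803, a background of 1.39%. The log2 fold change was positive for 116 names and negative for 154, with a median of -0.011, beside a median of -0.004 and 1431 negative values among all 2803 names. With library sizes from the repeat table in place of gene reads, 186 were negative and the median was -0.04. Knockout and control libraries did not overlap for 54 of the 270 names, 20%, against a background of 25.8%. Of these, 21 lay higher in knockout (background 12.9%) and 33 lower (background 12.8%). None of the 53 names at 100 CPM or more was among them (0 names), nor was any mononucleotide or -rich name. In bulk tissue, fewer cells of a type and less RNA per cell cannot be told apart.

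The 95% intervals come from the fit on group alone. It shares the estimate of spread over all names tested (prior degrees of freedom 27.4). An interval thus reflects the spread of a name's own libraries only in part. For names at 100 CPM or more the median interval of the log2 fold change reached 0.22 to either side, and for all 270 names 0.32. The log2 fold change was 0.04 for A-rich (SE 0.15, 95% interval -0.25 to 0.34), for GA-rich 0.004 (SE 0.12, interval -0.24 to 0.25) and for G-rich 0.03 (SE 0.11, interval -0.19 to 0.25). For (T)n it was 0.03 (SE 0.11, interval -0.19 to 0.25) and for (A)n 0.03 (SE 0.11, interval -0.19 to 0.25). The other 10 of the 15 leading names ran from -0.08 for (CCCT)n to 0.05 for (TA)n and (AT)n.

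**Figure D3:**
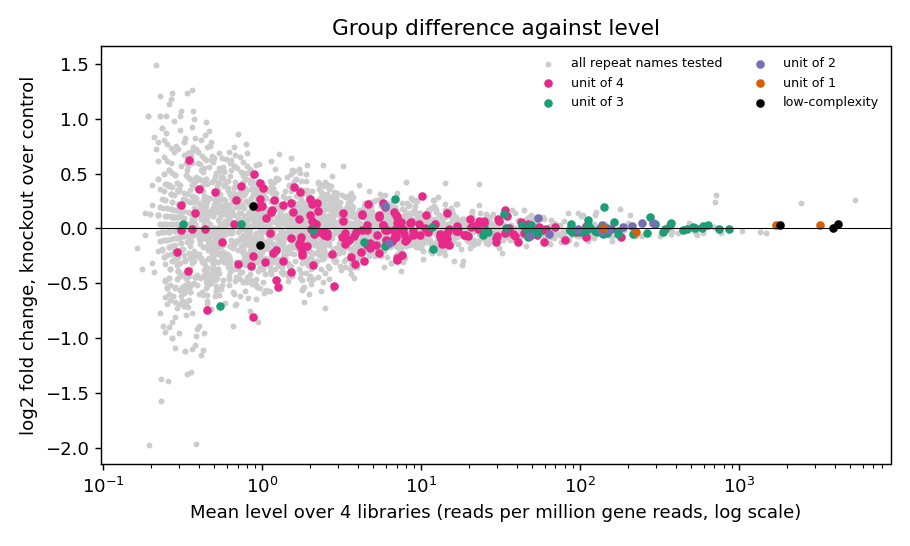
Log2 fold change of knockout over control (vertical axis) against the mean level over the 4 libraries (horizontal axis, CPM, log scale), 1 point per name. Grey points are all 2803 names tested and coloured points the short-unit and low-complexity names, which narrow towards 0 as the level rises.

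Summed over the 271 names, the level was 30924 ± 1830 CPM in the knockout and 30625 ± 1210 CPM in control libraries (SD, n = 2 each), a ratio of 1.01 (exact two-sided permutation p = 1). With 2 against 2 libraries this test cannot give a p below 0.333. By library the sums were 29630 and 32218 CPM in knockout replicates 1 and 2 and 29770 and 31481 CPM in control replicates 1 and 2. The libraries paired off by their number, not by their group. Without the -rich names this pairing was not seen. The 266 (unit)n names summed to 20780 and 20983 CPM in knockout replicates 1 and 2 and to 20908 and 20610.5 CPM in control replicates 1 and 2. Mononucleotides summed to 5342 ± 4.07 CPM in the knockout and 5240 ± 255 CPM in control libraries (ratio 1.02), and units of 2 letters to 1782 ± 38.6 against 1761 ± 8.75 CPM (ratio 1.01). Triplets summed to 11136 ± 119 against 11095 ± 432 CPM (ratio 1.004), and units of 4 letters to 2621 ± 67.04 against 2662 ± 41.7 CPM (ratio 0.985). The -rich names summed to 10043 ± 1686 against 9866 ± 1420 CPM (ratio 1.02). The exact two-sided permutation p was 0.667 for units of 4 letters and 1 for each of the other classes. For comparison, the 10683 names with longer units summed to 14399 ± 463 against 14317 ± 488 CPM, a ratio of 1.01.

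The largest differences among the abundant names lay between libraries of a group. For a typical name the gaps were closer in size. The median absolute log2 ratio was 0.12 between knockout replicates and 0.14 between control replicates. Between groups it was 0.10 for number 1 and 0.11 for number 2. A-rich was 1.43 times as high in knockout replicate 2 as in knockout replicate 1, and 1.45 times as high in control replicate 2 as in control replicate 1. GA-rich was 1.21 and 1.19 times as high in the same order. Counting error per library was only 0.244% for A-rich and 0.254% for GA-rich. Within a replicate number the groups lay close for A-rich, with a log2 ratio of knockout over control of 0.06 for number 1 and 0.03 for number 2. For GA-rich these were -0.008 and 0.02. The fitted log2 fold change of A-rich ran from -0.24 without knockout replicate 2 to 0.34 without control replicate 2. G-rich did not share the pattern, being higher in replicate 2 of the knockout and lower in replicate 2 of the control. Without A-rich, the summed level was 26634 ± 752 CPM in the knockout and 26460 ± 120.0 CPM in control libraries. Among the 130 names at 10 CPM or more, 4 differed between replicates by over 0.2 log2 units in the same direction in both groups. Besides A-rich and GA-rich these were (GGTT)n, at 54.3 and 62.4 CPM in the knockout and 53.9 and 64.1 CPM in control libraries, and (AGG)n. The last ran the other way, at 123 and 106.7 against 119 and 98.4 CPM. What makes the libraries with number 2 differ was not tested.

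**Figure D4:**
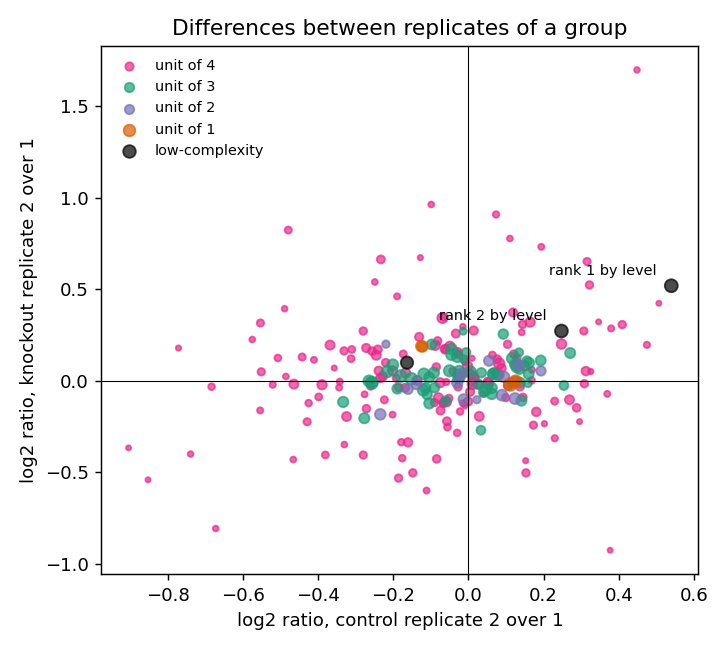
Log2 ratio of replicate 2 over replicate 1 in knockout (vertical axis) and control libraries (horizontal axis) for the 242 names with a mean of at least 1 CPM, 1 point per name, larger for higher levels. The 2 most abundant names, A-rich (rank 1) and GA-rich (rank 2), lie in the upper right, at 0.52 and 0.27 in knockout and 0.54 and 0.25 in control libraries.

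Base content separated the control libraries from each other. The 26 names with a unit of G and C only summed to 4429 and 4516 CPM in knockout replicates 1 and 2 and to 4751 and 4126 CPM in control replicates 1 and 2. The 27 names with a unit of A and T only summed to 6476 and 6370.5 CPM against 6058 and 6540 CPM. In both sets the 2 knockout libraries fell between the 2 controls, and the controls were placed in opposite order. The group means differed little, with 4472 ± 61.8 against 4439 ± 442 CPM for G and C only (ratio 1.01, exact two-sided permutation p = 1). For A and T only they were 6423 ± 74.8 against 6299 ± 340.3 CPM (ratio 1.02, exact two-sided permutation p = 1). The 213 names with both kinds of base summed to 9986 ± 156 against 10022 ± 108 CPM (ratio 0.996, exact two-sided permutation p = 0.667).

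Taken within replicate numbers, the group difference therefore had opposite signs. No label ties libraries of the same number to each other. With both knockout sums between the controls, either way of pairing the libraries gives opposite signs, so this restates the gap between the controls. Summed over G and C only, the log2 ratio of knockout over control was -0.10 for number 1 and 0.13 for number 2. Summed over A and T only it was 0.10 for number 1 and -0.04 for number 2. Single names went along with their sums. Of the 25 names of G and C only with a mean of at least 1 CPM, 19 had a negative ratio for number 1. For number 2 the ratio was negative for 1 of them. Of the 27 names of A and T only, 7 were negative for number 1 and 21 for number 2. The median difference between control replicates 2 and 1 went from 0.09 log2 units for units with no G or C through -0.03 for units with as many G or C as A or T to -0.19 for G and C only. Between the knockout replicates the medians were -0.06, 0.04 and 0.02 for the same 3 sets. Names share the libraries, so these counts describe 4 libraries and are not independent. The part of library preparation or sequencing in this was not tested.

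**Figure D5:**
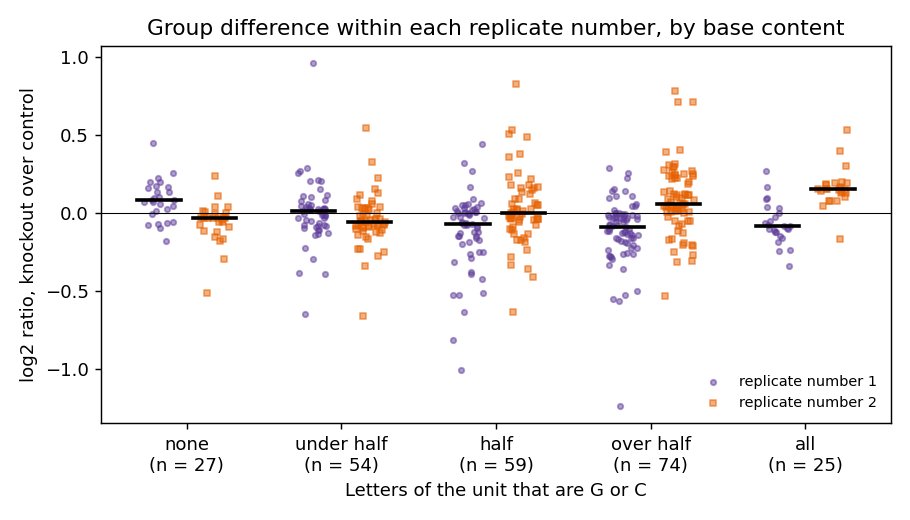
Log2 ratio of knockout over control (vertical axis) within replicate number 1 (circles) and number 2 (squares) for (unit)n names with a mean of at least 1 CPM, by the part of the unit's letters that are G or C (horizontal axis). Black bars are medians, which run from 0.08 to -0.09 for number 1 and from -0.04 to 0.15 for number 2 between units without and units of only G and C.

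For a view that does not depend on spelling, all starting letters and both strands of a unit were added into 1 family and the test was repeated. Of 52 families, 49 passed the filter and 0 were called by edgeR (smallest adjusted p = 0.9994, background 0% of 2580 rows). At an unadjusted p under 0.05 there were 0 as well, and DESeq2 and limma-voom called 0. By sign, 21 of the 49 log2 fold changes were positive and 28 negative. Among the 24 families at 100 CPM or more these ran from -0.05 to 0.13. Of the families described next, each positive value of up to 0.02 turned to a small negative one with library sizes from the repeat table.

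The dinucleotide families held 4 arrays. CA/TG stood at 708 ± 28.1 CPM in the knockout and 700.1 ± 35.4 CPM in control libraries (log2 fold change 0.02, SE 0.11). GA/TC stood at 352 ± 14.1 against 359.9 ± 16.1 CPM (-0.03, SE 0.11), and all 6 of its kept names had a negative value. AT stood at 590.4 ± 24.8 against 571 ± 30.7 CPM (0.05, SE 0.11), and all 4 of its names had a positive value when scaled by gene reads. Spellings of one array share the libraries, so these sign counts are not independent, and 154 of all 270 names were negative. CG, the sparse dinucleotide of vertebrate genomes, stood at only 13.2 ± 0.236 against 12.8 ± 0.592 CPM (0.04, SE 0.14).

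Of the triplet families, 3 are known from expansion disorders in humans. CAG/CTG, the unit of the polyglutamine and myotonic dystrophy expansions, stood at 1643 ± 49.2 CPM in the knockout and 1641 ± 54.3 CPM in control libraries (log2 fold change 0.001, SE 0.11). Its most abundant spelling, (GCA)n, held 22.3% of the level. CGG/CCG stood at 3762 ± 19.3 against 3727 ± 389 CPM (0.01, SE 0.11). GAA/TTC, the unit of Friedreich ataxia, stood at 1298 ± 23.5 against 1304 ± 64.3 CPM (-0.007, SE 0.11), with 44.9% of it under (TTC)n. AAT/ATT stood at 398 ± 6.46 against 398 ± 18.7 CPM (0.003, SE 0.11). None of these families holds a group difference as large as the difference between its 2 control libraries.

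Among units of 4 letters, AAAC was the most abundant of the families looked at, with 640.1 ± 7.58 CPM in the knockout and 658 ± 20.3 CPM in control libraries (log2 fold change -0.04, SE 0.11). AAAG stood at 226 ± 9.33 against 234 ± 4.34 CPM (-0.05, SE 0.11) and AAAT at 159 ± 0.904 against 161 ± 4.2 CPM (-0.02, SE 0.11). GATA stood at 13.2 ± 0.0554 against 13.3 ± 0.0958 CPM (-0.01, SE 0.14), mostly under its complement (TATC)n, which held 52.8%. GGAA stood at 79.7 ± 1.10 against 83.3 ± 0.364 CPM (-0.06, SE 0.12). Its knockout libraries, at 78.9 and 80.4 CPM, lay below both controls, at 83.0 and 83.5 CPM. Groups did not overlap for 9 of the 49 families tested, 2 higher and 7 lower in knockout. Over all single repeat names tested the share was 25.8%, with 12.9% higher and 12.8% lower. No such share was computed for the table with merged families, so the counts have no like background. The ACG family, a triplet singled out after its values were seen, had the highest value among the abundant families. It stood at 493 and 498 CPM in the knockout and 487 and 420.3 CPM in control libraries (0.13, SE 0.11, 95% interval -0.10 to 0.35). The groups did not overlap, and control replicate 2 stood apart from the other 3 libraries. Without it the value was 0.02, and without control replicate 1 it was 0.24.

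The names with no overlap, a mean of at least 1 CPM and the smallest unadjusted p were mostly sparse. Higher in both knockout libraries were (CGT)n, with 7.19 and 7.69 CPM against 5.90 and 6.46 CPM, and (GGAC)n, with 35.92 and 35.95 against 33.4 and 30.4 CPM. Their log2 fold changes were 0.27 (SE 0.16) and 0.17 (SE 0.12), and the latter was 0.11 without control replicate 2. (ACAC)n, a second way to write the CA array, stood at 6.73 and 5.69 against 4.96 and 5.59 CPM. (AGGG)n stood at 5.21 and 4.77 against 4.36 and 4.17 CPM and (GC)n at 6.55 and 6.09 against 5.43 and 5.51 CPM. These 3 had log2 fold changes of 0.24, 0.23 and 0.21. That of (ACAC)n was 0.11 without knockout replicate 1, 0.15 without control replicate 1 and 0.35 without knockout replicate 2. All 5 names were picked for having the knockout libraries above both controls, and in none did the edgeR adjusted p fall under 0.9997.

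Lower in both knockout libraries was (CTAG)n, with 1.62 and 3.05 CPM against 3.27 and 3.44 CPM. The log2 fold change was -0.52 with an SE of 0.25 (95% interval -1.03 to -0.02). Knockout replicate 1 stood apart, and without it the value was -0.14. Without knockout replicate 2 it was -1.05. Its family, with (CTAG)n as the leading spelling, had -0.36 (SE 0.19), -0.18 without knockout replicate 1 and -0.56 without knockout replicate 2. (CAAT)n stood at 1.01 and 1.04 against 1.31 and 1.65 CPM (-0.53, SE 0.30), and (CAAC)n at 0.980 and 1.07 against 1.41 and 1.42 CPM (-0.47, SE 0.30). (CCTG)n, the unit known from myotonic dystrophy type 2, stood at 6.50 and 6.35 against 7.81 and 7.66 CPM (-0.27, SE 0.16), and (ACCA)n at 3.46 and 4.39 against 4.93 and 4.71 CPM (-0.30, SE 0.19). Leaving out knockout replicate 1 gave -0.13 for (ACCA)n, and leaving out knockout replicate 2 gave -0.48. (CACT)n, under the minimum level and singled out after its values were seen, had the smallest unadjusted p of all the kept names. It stood at 0.619 and 0.660 against 1.09 and 1.15 CPM, with a log2 fold change of -0.80 (SE 0.34) on 140 reads in all. None of these 6 names passed the adjustment, each with an edgeR adjusted p of 0.9997.

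Complements of these names were read out separately. (ACG)n, the complement of (CGT)n, stood at 3.79 and 4.57 CPM in the knockout and 4.59 and 4.54 CPM in control libraries. (GTCC)n, the complement of (GGAC)n, stood at 3.15 and 3.43 against 4.61 and 3.24 CPM. (GTGT)n stood at 17.6 and 16.3 against 17.2 and 17.2 CPM beside (ACAC)n, and (CAGG)n at 2.81 and 2.26 against 2.40 and 2.82 CPM beside (CCTG)n. The groups overlapped for all 4. (TGGT)n, the complement of the lower name (ACCA)n, lay higher in both knockout libraries, at 1.495 and 1.42 against 1.24 and 1.27 CPM. (GTTG)n, beside (CAAC)n, stood at 3.97 and 4.47 against 4.73 and 3.82 CPM. Among the abundant names, (TG)n stood at 139 and 129.5 against 136 and 135 CPM beside (CA)n, (G)n at 131 and 149 against 145 and 133 CPM beside (C)n, and (CGC)n at 378 and 377 against 399 and 332 CPM beside (GCG)n. (ACAA)n, beside (TTGT)n, stood at 23.8 and 23.3 against 21.5 and 23.6 CPM. The groups overlapped for these 4 too, but not for (CAAA)n, the complement of (TTTG)n. It lay lower in both knockout libraries, at 14.0 and 14.1 against 14.9 and 15.1 CPM, with a log2 fold change of -0.10 (SE 0.14) beside -0.07 (SE 0.11) for (TTTG)n. Over the 112 pairs, 52 had log2 fold changes of the same sign, 17 of them both positive and 35 both negative. Pearson's r between the 2 values of a pair was -0.13 over 112 pairs, which share libraries and, where arrays overlap, may share reads.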

How the data were processed

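The deposited tables, which have no header, hold raw counts, 1 row per Ensembl gene or repeat name, for each library. Per the submitters' processing notes the authors used Bowtie2, featureCounts and DESeq2 with galGal6. The sources used here do not give versions, strand setting or the treatment of reads with many matches. Such reads are common for short-unit arrays, so counts may be split or dropped, and a read in a gene may be counted in both tables.

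Levels are counts per 1000000 reads of the same library's gene table (CPM). All repeat names passing filterByExpr (minimum count 10, minimum total 15) were tested with edgeR 4.0.16 in R 4.3.3 (glmQLFit and glmQLFTest, group only, library size the gene reads), with Benjamini-Hochberg adjustment over all names and a threshold of 0.05. SE is log2 fold change over the square root of F. Intervals are 95%. Families sum all starting letters and both strands of a unit, reduced to its shortest form, over all 334 names. Sums were compared by exact permutation (scipy 1.17.1). DESeq2 1.42.0, limma 3.58.1, other scalings and filters, and leaving out each library were alternatives. The fit was also run on simulated counts in which all names had the same spread, which does not measure its power for the differences reported here.

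Named were the 3 most abundant names of each class, up to 5 per direction with no overlap, at least 1 CPM and the smallest p, their complements, names at the limit, and fixed unit families. Names, lists and rules were chosen with earlier results of these data known. Exceptions are marked. Intervals cover counting error and the spread between pools, the latter estimated mostly from all rows tested together.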

Additional observations from a re-analysis of the deposited data

How the results depend on the processing

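The counts of 0 called names and 0 called families stood with DESeq2, limma-voom, TMM or median-of-ratios factors, repeat-table library sizes, no filter, robust estimation, a threshold of 0.10, other member limits and each library left out. With a replicate block they were 0 as well, and A-rich had a log2 fold change of 0.045 (95% interval -0.23 to 0.32). The median interval then reached 0.29 to either side over the 270 names and 0.22 at 100 CPM or more. Both sides of an embryo were used, but no label ties a replicate number to the same embryos. Deviations of same-numbered libraries had a correlation of 0.22 over 242 names, beside 0.29 over all 1831 repeat names at 1 CPM or more. Replicate 2 was higher in both groups for 59 of the 242 names and lower in both for 67. With 2 pairs of libraries, these values do not show that the numbers pair the libraries. With library sizes from the repeat table the median over names shifted to -0.04 and these log2 values changed sign: the sum over all names -0.019, the sum of units of 1 letter -0.0035, the sum of units of 2 -0.014, the sum of units of 3 -0.027, the sum of -rich names -0.011, the sum of A and T only -0.0026, the sum of G and C only -0.022, (T)n -0.00053, (CA)n -0.0054, GA-rich -0.031, G-rich -0.0016, CA/TG -0.015, CAG/CTG -0.031, CGG/CCG -0.019, AAT/ATT -0.028. Leaving out each library in turn leaves a lone library in a group, assumed to vary like the others, and the log2 values ranged as follows for sums: the sum over all names -0.048 to 0.073, the sum of units of 1 letter -0.021 to 0.078, the sum of units of 2 -0.0053 to 0.039, the sum of units of 3 -0.034 to 0.046, the sum of units of 4 -0.049 to 0.0036, the sum of -rich names -0.16 to 0.19, the sum of A and T only -0.026 to 0.084, the sum of mixed units -0.021 to 0.011, the sum of G and C only -0.087 to 0.12, the median over names -0.035 to 0.0083. For names they ranged as (T)n -0.024 to 0.087, (A)n -0.029 to 0.096, (C)n -0.13 to 0.061, (TA)n -0.0085 to 0.12, (CA)n -0.089 to 0.15, (GGC)n -0.093 to 0.087, (GCG)n -0.080 to 0.072, (GCC)n -0.089 to 0.17, (TTGT)n -0.033 to 0.020, (CCCT)n -0.26 to 0.082, A-rich -0.24 to 0.34, GA-rich -0.14 to 0.13, G-rich -0.048 to 0.12. For families they ranged as CA/TG -0.035 to 0.068, GA/TC -0.076 to 0.015, AT/TA -0.0049 to 0.10, CG/GC -0.0022 to 0.092, CAG/CTG -0.032 to 0.035, CGG/CCG -0.089 to 0.12, GAA/TTC -0.056 to 0.044, AAT/ATT -0.044 to 0.052, AAAT -0.042 to 0.011. The number of names with a negative value was 119 to 161 with a library left out, and 18 of 40 named features kept their sign under every alternative run. The names picked for no overlap between groups, and the ACG and CTAG families, are among these 18. Without overlap, leaving out a library cannot turn the sign, so for them the choice fixed that part in advance. Depth limits the 29 names under 1 CPM.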
